A study of Homo sapiens with 6 samples.

Results

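SKP2, RB1, YAP1, ITGB2, IL7R, UHMK1 and TYMS are 7 genes outside the mitochondrial programme that earlier work, in other cells, described as direct targets of GABP. They were taken by name, and each was given every GABPA peak whose summit lay inside or within 1 kb of its RefSeq span on GRCh38. They are 7 of 19974 protein-coding genes of chromosomes 1 to 22 and X. GABPA ChIP-seq was done with 1 antibody in A-375, an established human melanoma line, under 3 conditions with 1 ChIP library each. In the B1 knockout cells exon 2 of the gene for the B1 subunit was knocked out, and TERT was then knocked in, per the series' design text; the sample title calls this a rescue. The ROSA26 control carries a knockout at ROSA26, a site commonly edited as a neutral target. The parental control carries no knockout, and neither control is described as carrying the TERT knock-in. Per the labels, edited lines were grown from single sorted cells, so the knockout, the knock-in and the clone cannot be told apart. Peak lists hold positions of GABPA and no expression, so the identity of the line was not checked against marker genes.

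In GABP the subunit GABPA binds DNA through its ETS domain and pairs with a B subunit, made from GABPB1 or GABPB2, that activates transcription. ETS proteins recognise a GGAA core, and GABPA prefers the core with a pair of cytosines in front of it. GABP is best known for the promoters of mitochondrial and other housekeeping genes. The 7 genes fall into 3 roles. SKP2, UHMK1 and RB1 act on the entry into the cell cycle. SKP2 is the F-box protein with which an SCF ubiquitin ligase marks the inhibitor p27 for destruction. UHMK1, also named KIS, is a kinase that phosphorylates p27 and sends it out of the nucleus. RB1 encodes the retinoblastoma protein, which restrains E2F factors. YAP1, the co-activator held back by the Hippo pathway, and TYMS, which makes thymidylate for DNA synthesis, also serve growing cells. ITGB2 (CD18, the shared β chain of the leukocyte integrins) and IL7R (the α chain of the interleukin-7 receptor) belong to blood cells.

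The 3 members with a peak carried it at a gene start, and the promoter windows under those summits are shown because the results turn on them. They are RefSeq windows of GRCh38.p14, read in the direction of transcription; 6 of the 7 members matched a window, without ITGB2. The first is UHMK1 on the plus strand (chr1:162497555-162497854). The second is RB1-DT on the minus strand (chr13:48303653-48303952), the non-coding gene that starts opposite RB1 and whose window covers the start of RB1. The third is SKP2 on the plus strand (chr5:36151861-36152160). Capitals mark the 5-base motif GGAAG and the 6-base motif CCGGAA on either strand, which can overlap.
UHMK1: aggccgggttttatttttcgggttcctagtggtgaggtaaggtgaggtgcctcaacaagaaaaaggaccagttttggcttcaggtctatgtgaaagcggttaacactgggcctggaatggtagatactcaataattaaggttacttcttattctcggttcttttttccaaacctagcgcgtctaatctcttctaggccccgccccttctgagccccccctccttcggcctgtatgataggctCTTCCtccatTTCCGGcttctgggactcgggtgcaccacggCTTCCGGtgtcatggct
RB1-DT: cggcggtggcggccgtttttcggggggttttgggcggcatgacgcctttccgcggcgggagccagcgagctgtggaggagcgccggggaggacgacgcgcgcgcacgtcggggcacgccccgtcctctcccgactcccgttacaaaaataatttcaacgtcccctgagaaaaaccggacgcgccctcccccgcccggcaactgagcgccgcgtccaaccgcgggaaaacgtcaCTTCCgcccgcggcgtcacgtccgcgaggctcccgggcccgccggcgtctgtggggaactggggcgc
SKP2: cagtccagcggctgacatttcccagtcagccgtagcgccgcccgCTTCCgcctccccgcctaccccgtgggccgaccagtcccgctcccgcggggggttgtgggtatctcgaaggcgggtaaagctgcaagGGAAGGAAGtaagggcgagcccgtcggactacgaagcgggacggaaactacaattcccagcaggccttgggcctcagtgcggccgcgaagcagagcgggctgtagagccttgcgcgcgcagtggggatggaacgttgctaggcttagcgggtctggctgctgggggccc
The UHMK1 window holds CCGGAA at 2 places, and 1 of them is the longer CCGGAAG. The RB1-DT window holds 1 GGAAG, and the SKP2 window holds 3, of which 2 overlap in tandem. Neither of those windows holds CCGGAA.

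UHMK1 had a GABPA peak in all 3 libraries, RB1 and SKP2 had one in both controls and none in the B1 knockout list, and YAP1, ITGB2, IL7R and TYMS had none in any list. In the B1 knockout library 1 of 7 members was marked, against 10.2% of all protein-coding genes under the same rule. In the ROSA26 library 3 of 7 were marked, against 20.8% of all genes, and in the parental library 3 of 7, against 17.2%. The 3 of 7 correspond to 42.9% with an exact interval of 9.90 to 81.6, which contains both control backgrounds, so a list of 7 genes cannot be told from all genes by its count. Of the 3 members marked in both controls, 1 had a B1 knockout peak. Over all genes the corresponding share was 59.4% of 3398. The lists as a whole hold 1660 B1 knockout, 3857 ROSA26 and 3024 parental peaks. The most common background pileup was 9.86, 14.2 and 15.4 reads in the same order, so the B1 knockout library was the shallowest by this measure. A gene without a listed peak lies under the limit of the peak caller and is not thereby shown to be free of GABPA.

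**Figure D1:**
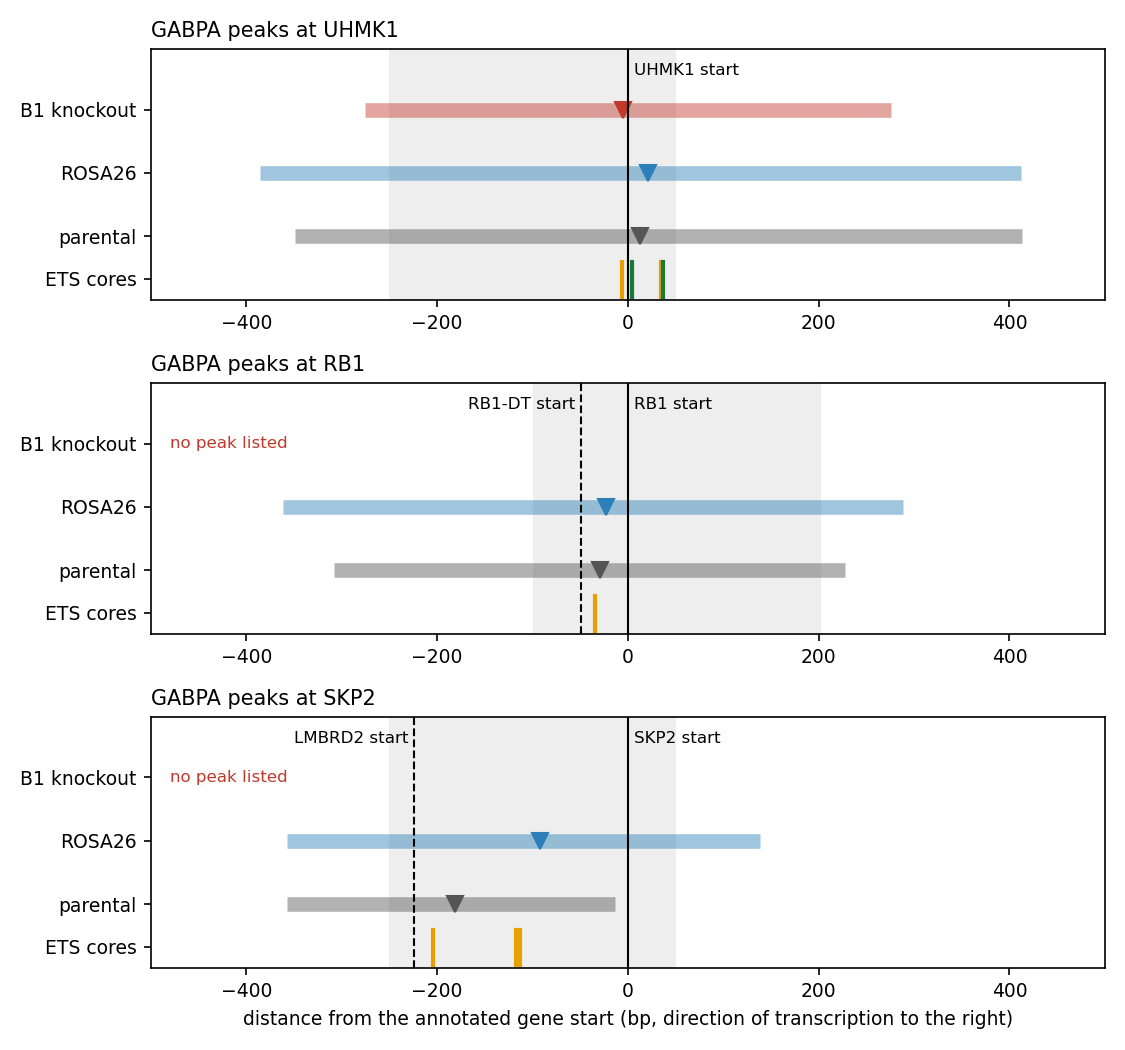
Peaks at UHMK1, RB1 and SKP2 in the B1 knockout, ROSA26 and parental libraries, by distance in bp from the gene start. For UHMK1 this is the start at 162497805, the first with a promoter window, and not the beginning of its span. Bars are peaks, triangles summits, dashed lines the start of the opposite gene, grey the printed window, orange ticks GGAAG and green ticks CCGGAA within it. UHMK1 has a peak in 3 libraries, RB1 and SKP2 in the 2 controls.

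UHMK1 (gene ID 127933, chromosome 1, 162497174 to 162529631) had the strongest peak of the 7 members in each library. The fold enrichment, the authors' own value for a peak here and throughout, was 6.38 in the B1 knockout, 10.2 in the ROSA26 and 9.03 in the parental list. Within its own list the peak exceeded 57.0% of the B1 knockout, 76.8% of the ROSA26 and 71.6% of the parental peaks by fold. Folds of different lists rest on different backgrounds, so a change from one library to another cannot be read from them. The summit was covered by 144 reads in the B1 knockout (95% Poisson interval 121 to 170), 281 in the ROSA26 (249 to 316) and 253 in the parental library (223 to 286). The local background was 21.7, 26.6 and 26.99 reads in that order, above the most common background of each library. The −log10 p was 62.6, 179.9 and 129. By −log10 p the peak exceeded 75.4% of the B1 knockout, 85.1% of the ROSA26 and 81.05% of the parental peaks. The gene was thus marked well above the limit of each list and in the upper part of the control lists. In the knockout list it was near the middle by fold and in the upper part by −log10 p.

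The 3 UHMK1 peaks covered the same stretch. They ran from 162497529 to 162498081 in the B1 knockout, from 162497419 to 162498217 in the ROSA26 and from 162497456 to 162498218 in the parental list. All 553 bp of the B1 knockout peak lay within both control peaks. The summits, at 162497800, 162497826 and 162497818, lay at most 26 bp apart. They were 626 to 652 bp inside the gene's span, but RefSeq also annotates starts at 162497805 and 162497818. The B1 knockout summit lay 5 bp before the first of these, and the ROSA26 and parental summits 21 and 13 bp after it. The ETS cores of the window sit at the same place. GGAAG at 162497797 to 162497801 included the B1 knockout summit and was 25 and 17 bp from the ROSA26 and parental summits. CCGGAAG at 162497838 to 162497844 was 38 bp from the B1 knockout, 12 bp from the ROSA26 and 20 bp from the parental summit. The second CCGGAA belongs to CCGGAAATG at 162497804 to 162497812, which was 4, 14 and 6 bp from the summits. No other gene had an end within 1 kb of these summits.

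RB1 (gene ID 5925, chromosome 13, 48303751 to 48481890) was marked in both controls at medium strength. It had no B1 knockout peak inside its span or within 1 kb of it, and the nearest one there was 2251 kb away. The fold was 7.21 in the ROSA26 and 6.46 in the parental list, above 58.8% and 50.6% of the peaks of those lists. The summit had 145 reads in the ROSA26 (122 to 171) and 123 in the parental library (102 to 147), on local backgrounds of 19.2 and 18.1 reads. The −log10 p was 74.9 in the ROSA26 and 50.4 in the parental list. In both controls the peak thus stood near the middle of the list and far from its lower end.

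The RB1 peak lay between 2 starts that face away from each other. RB1-DT (chromosome 13, 48296513 to 48303702), a non-coding RNA gene on the minus strand, starts 49 bp from the start of RB1. The summits were at 48303728 in the ROSA26 and 48303722 in the parental list, 6 bp apart, 23 and 29 bp before the start of RB1 and 26 and 20 bp before that of RB1-DT. The peak lists do not say to which of the 2 genes the site belongs. The GGAAG of the window, at 48303715 to 48303719, was 9 bp from the ROSA26 and 3 bp from the parental summit. Read on the plus strand it belongs to GCGGAAGTG, which matches 8 of the 9 letters of the longer ETS motif CCGGAAGTG. RefSeq also gives RB1 a start inside the gene at 48476450, where no library had a summit.

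SKP2 (gene ID 6502, chromosome 5, 36152111 to 36193530) had a weak peak in both controls and none in the B1 knockout list, where the nearest peak was 683 kb away, at NIPBL. The fold was 3.82 in the ROSA26 and 3.34 in the parental list, above 26.3% and 9.62% of the peaks of those lists. The summit had 74 reads in the ROSA26 (58.1 to 92.9) and 60 in the parental library (45.8 to 77.2), on local backgrounds of 18.6 and 17.2 reads. The ROSA26 value is the whole-number one of 2 solutions. The parental peak had a −log10 q of 9.98, and it drops out when a −log10 q of at least 10 is asked for. The ROSA26 peak, with 18.7, passes that limit. SKP2 was therefore the member closest to the lower end of the control lists.

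The SKP2 peak also lay between genes that start back to back. LMBRD2 (chromosome 5, 36098407 to 36151887), a membrane protein gene on the minus strand, begins 224 bp before SKP2. The ROSA26 summit at 36152019 was 92 bp from the start of SKP2 and 132 bp from that of LMBRD2. The parental summit at 36151930 was 181 bp from the start of SKP2 and 43 bp from that of LMBRD2. These summits were 89 bp apart, although all 344 bp of the parental peak lay within the ROSA26 peak. The window has ETS cores near each summit. The tandem GGAAG at 36151992 to 36152000 ended 19 bp from the ROSA26 summit, and a single GGAAG at 36151905 to 36151909 ended 21 bp from the parental summit. With 60 and 74 reads at the summit, the place of the maximum is less certain here than at UHMK1.

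**Figure D2:**
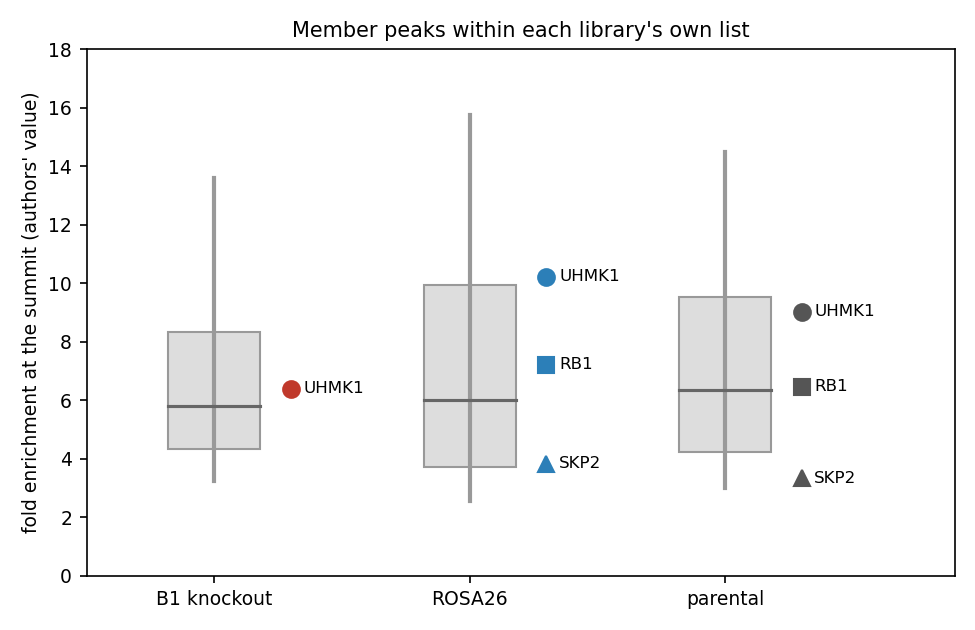
Fold enrichment at the summit of the UHMK1, RB1 and SKP2 peaks in the B1 knockout, ROSA26 and parental libraries, beside the fold of all peaks of the same list (box: quartiles and median; line: 5th to 95th percentile). UHMK1 stands at 6.38, 10.2 and 9.03 in the 3 lists, and RB1 and SKP2 appear in the 2 control lists.

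The other members had no peak by the rule, and their nearest summits lay far outside the 1 kb limit. For ITGB2 (gene ID 3689, chromosome 21, 44885953 to 44928815) the nearest summit was 11.1 kb beyond the gene in the B1 knockout, 11.1 kb in the ROSA26 and 11.2 kb in the parental list. That peak is strong in all 3 lists, with folds of 17.4, 17.4 and 18.4, and lies within 1 kb of ends of SLX9 and LINC01547, not of ITGB2. For YAP1 (gene ID 10413, chromosome 11, 102110447 to 102233424) the nearest summit was 859 kb away in the B1 knockout and parental lists, at DCUN1D5. In the ROSA26 list it was 114 kb away, at BIRC2. For IL7R (gene ID 3575, chromosome 5, 35856891 to 35879603) it was 941 kb away in the B1 knockout list. In the controls it was the SKP2 peak itself, 272 kb away. For TYMS (gene ID 7298, chromosome 18, 657653 to 673578) it was 2589 kb away in the B1 knockout list, and 139 kb away in both controls, at YES1. No member without a peak came near the limit of the rule. Among the members with one, the summit farthest outside a span was the parental one at SKP2, 181 bp before the gene.

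The windows of the members without a peak also hold GGAA cores, and a stretch of 30 bases around the best match to CCGGAAGTG is shown for comparison with the windows above. The match was required to keep GGAA, on either strand, and its letters are in capitals. The stretches are YAP1 (chr11:102110349-102110378), IL7R (chr5:35856782-35856811) and TYMS (chr18:657618-657647), all RefSeq GRCh38.p14 on the plus strand.
YAP1: cgcgcagaggAAGGAAGAGccgagaggagg
IL7R: cttttactcaGACTTCCTGtttctggaact
TYMS: gaaaaggcgcGCGGAAGGGgtcctgccacc
YAP1 reached 6 of 9 letters, and IL7R and TYMS 7 of 9. SKP2, with a weak peak, also reached 7 of 9, and UHMK1 reached 8 of 9. RB1 reached 8 of 9 in the window of RB1-DT, and 5 of 9 in its own window, at the start inside the gene. At least 8 letters were found in 10.6% of all 35116 RefSeq windows, at least 7 in 35.2% and at least 6 in 72.4%. The windows of YAP1, SKP2, RB1-DT and TYMS are rich in G and C (70.7, 67.3, 71.3 and 72.0%), that of UHMK1 is at 51.0%, and that of IL7R is at 44.3% with no CpG. A match is a description of the letters and not a site.

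GGAAG alone occurred in all 6 members that have a window, with and without a peak, and in 71.9% of all windows. The 7-base motif CCGGAAG was found in 10.3% of all windows and, among the members, in UHMK1. Among the 15812 protein-coding genes that have a window, it was present for 16.5% (15.9 to 17.1), which is the share to set beside the gene classes below. Across these genes it followed the peaks. It was present for 62.8% of 1745 genes with a peak in all 3 libraries (60.5 to 65.1), as at UHMK1. In the class with a peak in both controls only it was present for 42.3% of 1161 genes (39.4 to 45.2), the class of RB1 and SKP2, which lack it. Among 12233 genes without a peak in any library it was present for 6.83% (6.39 to 7.30), and YAP1, IL7R and TYMS are with the majority there. RB1 and SKP2 are thus among the marked promoters without the motif, of which there are many. The classes read each gene's own windows, which need not lie under its peak. The own window of RB1 is at the start inside the gene. The RB1-DT window, which lies under the RB1 peak, also lacks CCGGAAG. Where a parental summit lay inside a window, the median parental fold was 8.06 over 1265 peaks with CCGGAAG and 5.12 over 390 peaks without CCGGAA (quartiles 3.78 and 7.04). RB1, at 6.46, was between the median and the upper quartile of the peaks without CCGGAA, and SKP2, at 3.34, under their lower quartile.

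**Figure D3:**
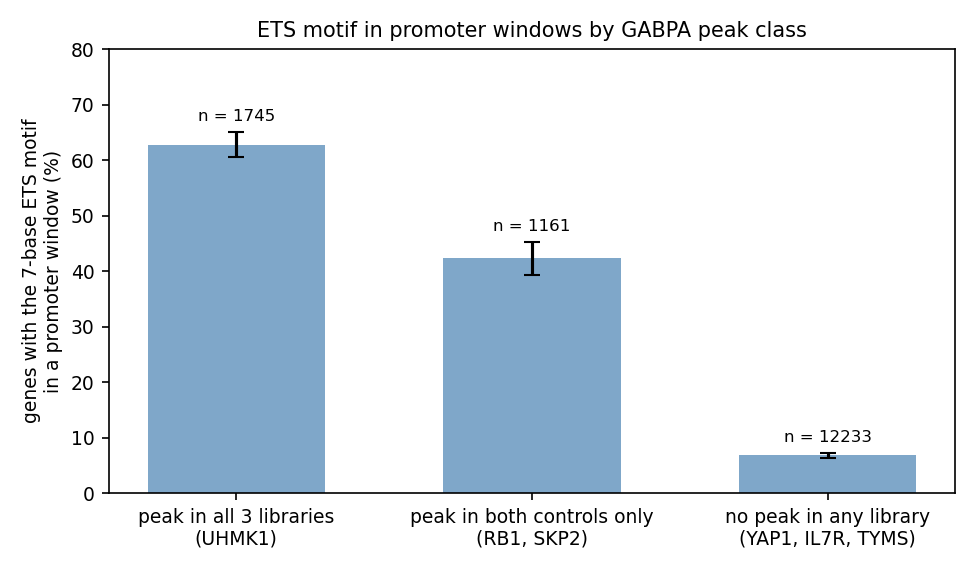
Share with CCGGAAG in a promoter window among protein-coding genes that have a RefSeq window, in percent with exact 95% intervals. Genes are grouped by the libraries in which they had a GABPA peak. Windows are those of the gene itself and need not lie under its peak, as for RB1. The bars stand at 62.8, 42.3 and 6.83%, and the members of each class that have a window are named under them.

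The peaks kept and not listed in the B1 knockout cells were set beside control-shared peaks of like strength, that is parental peaks overlapped by a ROSA26 peak, with a parental fold near that of the member. With folds of 7.22 to 11.3 around UHMK1, 715 of 804 such peaks (88.9%, 86.6 to 91.0) had a B1 knockout peak. With folds of 5.16 to 8.07 around RB1 it was 483 of 808 (59.8%, 56.3 to 63.2), and with folds of 2.67 to 4.17 around SKP2 39 of 642 (6.07%, 4.36 to 8.21). UHMK1 was thus listed where most peaks of its strength were. SKP2 was missing where nearly all were missing, and RB1 was missing where somewhat more peaks were listed than not. With strength taken from the ROSA26 fold the share around RB1 was 52.0% of 866, near an even split. The B1 knockout fold of UHMK1, 6.38, exceeded that of 60.3% of its kept peers, whose median was 5.80 (quartiles 4.57 and 7.53). Its ROSA26 fold, 10.2, exceeded that of 50.6% of its peers. The ROSA26 folds of RB1 and SKP2 exceeded those of 39.9% and 32.9% of their own peers, so no member stood at an edge of its peers in the ROSA26 list.

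Where peaks of the strength of RB1 or SKP2 were kept, their median B1 knockout fold was below that of all B1 knockout peaks. The 483 kept peers of RB1 had a median B1 knockout fold of 4.48 (quartiles 3.85 and 5.51), and the 39 kept peers of SKP2 had 3.73 (quartiles 3.43 and 3.98). The lower quartile of all B1 knockout peaks was 4.32 and their median 5.81. By −log10 p, RB1 ranked 1606 of 3857 peaks in the ROSA26 and 1571 of 3024 in the parental list, and SKP2 ranked 2882 and 2836. The B1 knockout list holds 1660 peaks in all. The knockout, the TERT knock-in, the clone and the depth of the library cannot be told apart here.

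**Figure D4:**
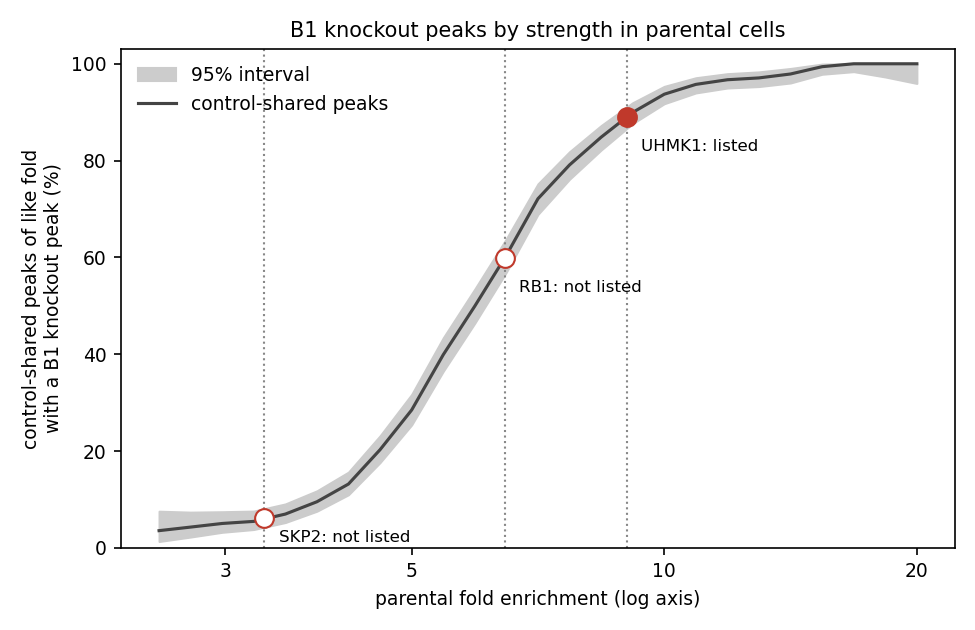
Share of control-shared peaks with a B1 knockout peak, in percent with an exact 95% interval, along the parental fold enrichment (log axis), over peaks within a narrow range of fold around each value. Filled and open circles mark members with and without a B1 knockout peak; UHMK1 stands at 88.9%, RB1 at 59.8% and SKP2 at 6.07%.

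The share kept was also read with and without CCGGAA at the strengths of these members. Among control-shared peaks of RB1's strength with a summit in a promoter window, 62.2% of 437 with CCGGAA (57.5 to 66.8) and 65.9% of 126 without it (56.9 to 74.1) had a B1 knockout peak. At SKP2's strength the shares were 5.69% of 211 with it (2.97 to 9.72) and 6.90% of 116 without (3.02 to 13.1). At UHMK1's strength they were 91.4% of 514 (88.7 to 93.7) and 91.3% of 69 (82.0 to 96.7). The intervals overlapped at each of these strengths, and some were wide, so the overlap does not show that the shares are equal. A part of the motif in which peaks were kept was not tested. Over all strengths the shares were 66.1% of 1559 with CCGGAA (63.7 to 68.5) and 45.2% of 385 without it (40.1 to 50.3), and peaks with CCGGAA were also the stronger ones by parental fold.

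The genes with the most similar folds were few steps from each member. Only genes with a peak in the same libraries as the member were compared. The genes compared with RB1 and SKP2 therefore lacked a B1 knockout peak by choice, and that absence is not a result. Over the 3 libraries the log2 folds nearest to those of UHMK1 were at CHTF8 and DERPC, which share a peak, with folds of 6.25 in the B1 knockout, 9.99 in the ROSA26 and 8.98 in the parental list (distance 0.05 on the log2 scale, 2017 candidates). Over the 2 controls RB1 was nearest to CLPTM1 (7.15 in ROSA26, 6.40 in parental, distance 0.02) and to the replication gene MCM10 (7.32 and 6.35, distance 0.03). SKP2 was nearest to DDX31 and GTF3C4, which share a peak with folds of 3.76 in the ROSA26 and 3.31 in the parental list (distance 0.02). Likeness over 2 or 3 values is easily met and describes peak height alone.

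Partners of the cell cycle members were read beside all protein-coding genes, of which 10.2% were marked in the B1 knockout, 20.8% in the ROSA26 and 17.2% in the parental library. Of 9 genes of the SCF-SKP2 and p27 step, 1 (11.1%) was marked, in all 3 libraries. It was CKS1B, the small subunit that helps SKP2 bind p27. Its highest folds were 3.64 in the B1 knockout, 10.7 in the ROSA26 and 10.1 in the parental list. These need not belong to the same peak. The B1 knockout fold of 3.64 is also that paired with a control-shared peak of folds 5.36 in ROSA26 and 5.24 in parental. The strongest parental summit at CKS1B lay 510 bp from the nearest end of its span. SKP1, CUL1, RBX1 and CDKN1B, the gene of p27, had no peak. Of 16 RB pathway genes, 1 was marked in the B1 knockout, 2 in the ROSA26 and 2 in the parental library (6.25, 12.5 and 12.5%). E2F4, the repressive partner of RB family proteins, had folds of 8.52, 11.4 and 14.6 in that order, and E2F5 was marked in the controls (4.94 in ROSA26 and 4.17 in parental). Of 6 substrates and relatives of UHMK1, 1, 3 and 2 were marked (16.7, 50 and 33.3%). The splicing factor gene U2AF2 had fold enrichments of 11.8, 21.3 and 17.2, and SF3B1 was marked in the controls at 7.53 in ROSA26 and 6.53 in parental.

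Of 16 Hippo genes, 1 was marked in the B1 knockout, 2 in the ROSA26 and 2 in the parental library (6.25, 12.5 and 12.5%, beside 10.2, 20.8 and 17.2% of all genes). The kinase gene STK4 had fold enrichments of 4.93, 10.4 and 9.39 in that order, and the kinase gene LATS1 was marked in the controls (4.14 in ROSA26 and 3.63 in parental). YAP1's DNA-binding partners TEAD1 to TEAD4 had no peak. Of 12 thymidylate and folate genes, 1, 3 and 2 were marked (8.33, 25 and 16.7%). DUT, which makes the dUMP that TYMS uses, was marked in all 3 libraries (3.81, 6.68 and 6.57).

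Of 17 leukocyte integrin and interleukin-7 receptor partners, 0 had a peak in the B1 knockout, 1 in the ROSA26 and 0 in the parental library, beside 10.2, 20.8 and 17.2% of all genes. The 1 was ITGAD, with a ROSA26 fold of 3.72, named after its value was seen. The list includes JAK1, STAT5A and STAT5B, which act in many cell types, and these had no peak either.

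Classic GABP targets of the mitochondrial programme were taken as the nearest comparison. Of 6 genes, 4 had a peak in the B1 knockout, 6 in the ROSA26 and 5 in the parental library, beside 1, 3 and 3 of the 7 non-mitochondrial targets and 10.2, 20.8 and 17.2% of all genes. TFB2M, a mitochondrial transcription factor, had folds of 7.20, 10.1 and 11.3, and COX5B, a subunit of cytochrome c oxidase, had 6.68, 10.1 and 9.01 in the same order. COX4I1 was marked in the controls (4.44 in ROSA26 and 4.45 in parental). The lists are short and were chosen with earlier results known, and they were not tested against each other.

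**Figure D5:**
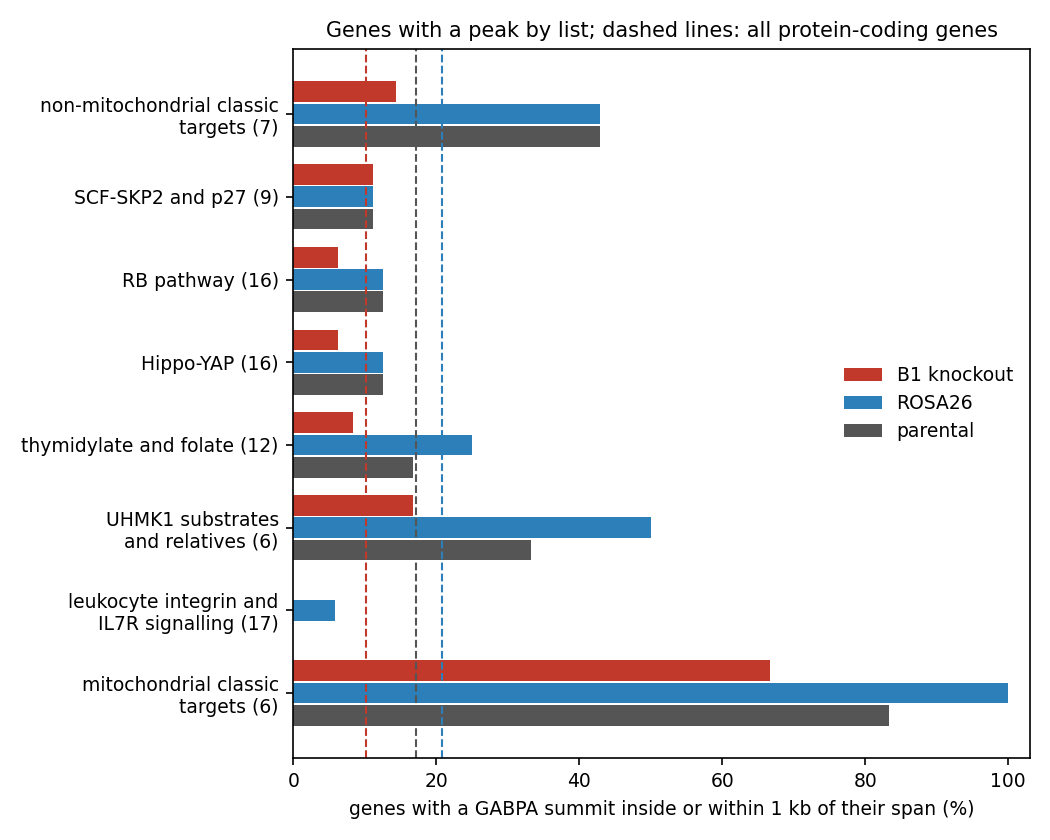
Share of the genes of each list with a GABPA summit inside or within 1 kb of their span, in percent, in the B1 knockout, ROSA26 and parental libraries, with the number of genes in brackets. Dashed lines give all protein-coding genes (10.2, 20.8 and 17.2%). The non-mitochondrial targets stand at 14.3, 42.9 and 42.9%.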

How the data were processed

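GABPA ChIP was available for 3 samples, 1 per condition; the 3 input samples were not analysed here. Per the submitters' processing notes, the tools were Bowtie2, SAMtools and MACS2 and the build hg38. Their versions, the peak thresholds and the role of the input were not given in the sources used here. Each ChIP sample has its own list. The deposited lists give a fold (the ratio of summit pileup to local background), −log10 p-values, −log10 q-values and a score equal to 10 times −log10 q with decimals dropped. These values were used to describe or rank peaks within their own list.

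Total read numbers are not in the lists. Summit reads were solved from fold and −log10 p by the MACS2 formula, with a pseudocount of 1, a Poisson tail and 1 scale factor per library (tolerance 0.01 in −log10 p). A solution was found for all peaks. Where several pairs met the formula (349 B1 knockout, 1771 ROSA26 and 622 parental peaks) the one nearest to a whole number of reads was kept, and all came out within 0.05 of a whole number. The solver was tested on simulated data. Intervals (95%) are exact Poisson for reads and exact Clopper-Pearson for shares, and cover counting error only.

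A gene had a peak when a summit lay inside or within 1 kb of its RefSeq GRCh38.p14 span. The fold of a partner gene or of a gene with a similar fold pattern is its highest in each library, which may come from different peaks. Fold patterns were compared only among genes with a peak in the same set of libraries as the member. Peaks of like strength had 0.8 times to the inverse of 0.8 times the member's parental fold. Promoter windows (250 bases before to 50 after a start) came from RefSeq. Members, the 7 partner lists and the rule for named genes (all members, neighbours within 1 kb of a summit, per list the 2 control-shared genes of highest parental fold with a B1 knockout peak and the 2 without one, 2 nearest fold patterns per member) were chosen with earlier results of these data known. With 1 library per condition no test was made and no p-value between conditions is given. Analyses used Python 3.11.15, pandas 2.3.3, numpy 2.4.6, scipy 1.17.1 and matplotlib 3.10.9.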

Additional observations from a re-analysis of the deposited data

How the results depend on the processing

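Counts of members with a peak moved little with the rule. Reaches of 500 bp and 2 kb, summits within 1 kb of a span end or of the gene start (6 members with a known strand), and any base of a peak in place of its summit all gave 1 member in the B1 knockout, 3 in the ROSA26 and 3 in the parental library. With a −log10 q of at least 10 the parental library had 2, without SKP2. With equal list lengths (the top 1660 peaks by −log10 p) both controls had 2, without SKP2, and RB1 stayed with ranks of 1606 in ROSA26 and 1571 in parental. The share of peaks of like strength with a B1 knockout peak was 52.0% in place of 59.8% for RB1 when strength was taken from the ROSA26 fold, and 86.6% in place of 88.9% for UHMK1 when 0.5 of each peak had to overlap. Of 6 members with a promoter window, 1 held CCGGAAG, 6 held GGAAG, and 2 held at least 8 of 9 letters of CCGGAAGTG, a setting added after seeing the data. RB1 was among these 2 by the window of RB1-DT. No paired analysis was possible because each condition has 1 library. SKP2 had the fewest summit reads of the marked members, and absence from a peak list cannot be read as absence of GABPA.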
